A study of Mus musculus with 2 samples.

Results

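Solute carriers are the genes of membrane transporters whose symbols start with Slc and a family number. Among the 11054 gene names that the called nascent transcripts carried in either library, 191 matched that form, and these were the genes described here. Of the 191 names, 186 were carriers and 5 were not, since Slc9a3r1 and Slc4a1ap encode interacting proteins, Slc7a6os is an opposite-strand gene, and Slc2a4rg-ps and Slc22a13b-ps are pseudogenes. Solute carriers move sugars, amino acids, ions, metals, nucleotides, lipids and vitamins across the plasma membrane, the lysosome, the Golgi and the inner mitochondrial membrane. Each family number marks a group of related proteins, whose substrates can differ. The substrate groups below were assigned by family number, so a gene can carry another substrate than its group is named for, as Slc16a10 does. In macrophages they are known for arginine and glutamine uptake, glucose and lactate exchange, and the handling of iron and heme recovered from engulfed red cells.

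Global run-on sequencing (GRO-seq), which labels and captures RNA while polymerases are making it, was done on bone marrow-derived macrophages (BMDMs) of wild-type mice aged 8 to 12 weeks. Marrow cells were grown for 6 days with the growth factor M-CSF, supplied as L929 cell supernatant, and both libraries share that background. The control library had no cytokine, and the other came from cells given 20 ng/ml of interleukin-4 (IL-4), the cytokine of alternative macrophage polarization, for 1 hr. Run-on reactions in duplicate were pooled into 1 library per condition (n = 1), so no value has a replicate error, no test of the conditions was possible, and fewer transcribing cells and less transcription per cell cannot be told apart.

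The control library held 43122 transcripts with a median length of 227 bp, and the IL-4 library 51365 with a median of 312 bp. Each transcript has a score printed to 1 decimal, the scale of which is not stated, and the depth of the libraries is unknown. A gene's value was the highest score among transcripts carrying its name. A name marks the nearest promoter, not the gene transcribed, so each gene was also given an own-strand value, the highest score among transcripts overlapping it by at least 1 bp on its own strand. Ratios of IL-4 over control were taken on the log2 scale and centred on the median gene, whose printed ratio was -0.38. The rounding range of a ratio is what scores known to within 0.05 allow, and it is not a replicate error. All 10 macrophage markers examined, among them Csf1r and Adgre1, had own-strand transcripts in both libraries (summed value 20.4 in control and 18.4 after IL-4). None of the 5 T cell, 5 B cell or 5 fibroblast markers had any, whereas 2 of 5 neutrophil markers did in each library, summing to 1.1 and 0.5.

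Promoter windows of 5 carriers are shown because the scores of called transcripts at the gene start changed in different directions between them. They are RefSeq windows of GRCm38.p6, read 5' to 3' on the gene's strand, each of 300 bases and most of it upstream of the start. Capitals mark TTCNNNGAA or TTCNNNNGAA, the palindromes recognised by STAT factors, of which STAT6 acts downstream of the IL-4 receptor. Slc12a7 lies at chr13:73763447-73763746 (+), Slc35b1 at chr11:95384606-95384905 (+), Slc16a10 at chr10:40142205-40142504 (-), Slc43a2 at chr11:75531862-75532161 (+) and Slc30a5 at chr13:100833378-100833677 (-).
Slc12a7: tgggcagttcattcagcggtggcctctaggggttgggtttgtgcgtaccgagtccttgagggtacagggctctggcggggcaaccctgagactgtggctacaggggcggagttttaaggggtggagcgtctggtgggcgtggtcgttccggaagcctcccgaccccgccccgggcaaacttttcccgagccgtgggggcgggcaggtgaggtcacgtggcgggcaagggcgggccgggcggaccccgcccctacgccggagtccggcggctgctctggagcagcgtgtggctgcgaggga
Slc35b1: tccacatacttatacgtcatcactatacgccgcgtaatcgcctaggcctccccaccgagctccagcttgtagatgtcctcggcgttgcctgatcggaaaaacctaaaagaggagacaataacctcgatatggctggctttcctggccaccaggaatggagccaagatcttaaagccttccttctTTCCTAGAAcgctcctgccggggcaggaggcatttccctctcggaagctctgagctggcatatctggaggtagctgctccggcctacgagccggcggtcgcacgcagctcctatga
Slc16a10: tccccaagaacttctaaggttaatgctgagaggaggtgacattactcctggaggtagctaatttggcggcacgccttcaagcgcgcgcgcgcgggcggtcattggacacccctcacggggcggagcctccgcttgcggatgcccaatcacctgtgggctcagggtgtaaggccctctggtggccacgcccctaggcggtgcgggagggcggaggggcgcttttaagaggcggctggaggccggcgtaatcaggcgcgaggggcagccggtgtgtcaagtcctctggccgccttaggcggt
Slc43a2: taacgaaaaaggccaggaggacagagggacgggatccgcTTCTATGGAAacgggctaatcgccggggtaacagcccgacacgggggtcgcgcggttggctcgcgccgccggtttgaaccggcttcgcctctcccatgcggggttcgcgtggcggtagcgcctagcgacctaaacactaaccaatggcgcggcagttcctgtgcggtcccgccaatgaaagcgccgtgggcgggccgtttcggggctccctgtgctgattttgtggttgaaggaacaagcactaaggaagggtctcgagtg
Slc30a5: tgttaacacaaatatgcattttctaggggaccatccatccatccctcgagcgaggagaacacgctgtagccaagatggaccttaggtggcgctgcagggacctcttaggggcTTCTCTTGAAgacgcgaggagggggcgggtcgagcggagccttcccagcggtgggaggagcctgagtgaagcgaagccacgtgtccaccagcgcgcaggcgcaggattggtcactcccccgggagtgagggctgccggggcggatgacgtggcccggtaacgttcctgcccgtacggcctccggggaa

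Own-strand scores over these windows were 0.2 in control and 0.7 after IL-4 for Slc12a7, a potassium-chloride cotransporter. Over the window of Slc16a10, an aromatic amino acid transporter, they were 0.8 and 0.6. Slc43a2, a carrier of large neutral amino acids, had 1.0 and 0.4. Only the IL-4 library had a transcript over the windows of Slc35b1 and Slc30a5, with a score of 0.3 for each. Of these motif-holding windows, those of Slc35b1 and Slc30a5 were thus covered after IL-4 only and that of Slc43a2 had a lower score. Other genes with a motif in a window often showed no difference, with equal scores for Slc37a4 (0.2), Slc46a3 (0.4) and Slc50a1 (0.3). Slc25a36 had 0.3 and 0.4, Slc38a9 had 0.2 and 0.1, and Slc25a25 was covered after IL-4 only (0.4). The remaining motif-holding genes had no own-strand transcript over a window in either library. A link between motif and change was not tested. A RefSeq window was matched for 148 of the 191 genes (193 windows, since some genes have several starts). The motif with a spacer of 3 was found on either strand in 8 of the 193 windows (4.15%) and in 8.30% of all 32851 windows. That with a spacer of 4 was in 12 windows (6.22%) and in 6.95% of all. Both motifs are palindromes apart from the spacer, and a match is a string of letters and not a measured site.

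Called transcripts overlapped the promoter windows of more carriers after IL-4 than in control. An own-strand transcript covered the promoter window of 53 of the 148 genes (35.8%) in control and of 80 (54.1%) after IL-4. These were 47 genes in both, 6 in control only and 33 after IL-4 only. Over all 27025 genes in the promoter table the same counts were 3539 (13.1%) and 4591 (17%), with 550 in control only and 1602 after IL-4 only. The carriers' larger shares follow in part from their choice, since each had to have a named transcript. Among the 47 genes covered in both libraries, the printed score was higher after IL-4 in 10, lower in 25 and equal in 12, and over the 2989 such genes in all it was higher in 814 and lower in 1417. The windows lie mostly upstream, so a transcript that begins just inside the gene can miss them, as the control transcript of Slc35b1 does, and transcripts were longer after IL-4. With windows extended 300 bases downstream, an alternative chosen after seeing the data, 83 carriers (56.1%) were covered in control and 104 (70.3%) after IL-4, 3 in control only and 24 after IL-4 only. Over all genes these were 5327 (19.7%) and 6124 (22.7%), with 595 and 1392 in 1 library only.

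By name, 165 of the 191 genes had a value in control and 177 after IL-4, and 151 had one in both. Their medians were 0.5 and 0.4, against 0.5 and 0.3 over all genes. A value in control only was found for 14 (7.33%, against 8.58% of all 11054 names), and after IL-4 only for 26 (13.6%, against 11.1%). Of the 151, 14 were at least 2-fold higher after IL-4 (9.27%, against 8.06% of the 8879 genes with both values) and 14 at least 2-fold lower (9.27%, against 8.62%). Without centring the split was 9 higher and 39 lower, but the median gene itself then lay at -0.38. The shares over all genes are not given for that setting, so this split is not a result about carriers. For 8 higher and 8 lower genes the whole rounding range was past 2-fold, which is 5.30% each way against 3.67% and 3.85% of all genes. The median centred ratio was -0.04, with quartiles of -0.62 and 0.38 against -0.51 and 0.38 over all genes. These shares were near those of all genes in both directions. For 62 of the 151 the rounding range included no change.

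**Figure D1:**
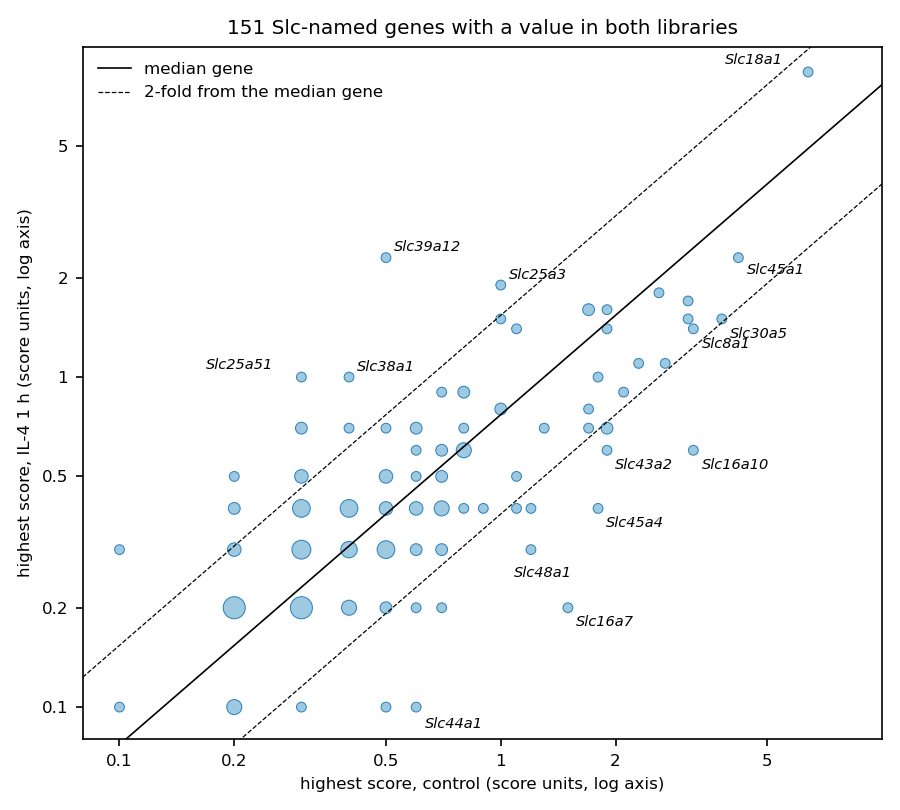
Highest score by name of the 151 genes with a value in both libraries, control on the horizontal and IL-4 (1 h) on the vertical axis, both in score units on log axes. Circle area grows with the number of genes at a printed value, the solid line is the median gene and the dashed lines are 2-fold from it, with 14 genes at or past each of them.

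The own-strand view covered 154 of the 191 genes, 125 in control, 147 after IL-4 and 118 in both. Here 9 of 118 were at least 2-fold higher (7.63%, against 8.26% of 8209 genes) and 15 at least 2-fold lower (12.7%, against 8.44%). The whole rounding range was past 2-fold for 5 higher (4.24%, against 3.75%) and 7 lower (5.93%, against 4.08%). The remaining 37 names had no own-strand transcript in either library, which means that their values came from elsewhere. Of the transcripts carrying a solute carrier name, 622 of 935 in control (66.5%, 95% Wilson interval 63.4 to 69.5) and 613 of 931 after IL-4 (65.8%, 62.7 to 68.8) lay in the named gene on its strand. Another 209 and 200 lay in a different gene on that gene's strand. Own-strand transcripts of the 191 genes numbered 780 in control and 790 after IL-4, while over all annotated genes they numbered 39990 and 47655. The covered length was 197735 bp and 279957 bp for the carriers, against 9806774 bp and 16802253 bp for all genes.

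Amino acid carriers had 27 names, of which 18 had both values, 5 a value in control only and 4 after IL-4 only. At least 2-fold higher was 1, lower were 2, and the median centred ratio was -0.04. For this group and those below, the shares over all genes were 8.06% higher and 8.62% lower. The cationic amino acid carrier Slc7a2 (ENSMUSG00000031596.15, chr8:40862396-40922308, plus strand), which imports arginine, went from no called transcript to 5 on its own strand once IL-4 was given. Their scores were 0.2, 0.3, 1.6, 0.7 and 0.2 at 7.16, 10.5, 17.6, 35.4 and 55.4 kb from the annotated start. The highest is a segment of 56 bp annotated as a (TTG)n simple repeat in the first intron, that of 0.7 is also in a simple repeat, and the other three are not in repeats. Slc7a1, the related arginine carrier, was named in neither library and had no own-strand transcript.

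The 4 light chains listed for macrophages that pair with Slc3a2, the heavy chain of the heteromeric amino acid transporters, went different ways. Slc7a7, which exports cationic amino acids, had 12 own-strand transcripts in control, scoring up to 0.8, and none after IL-4. Slc7a8, a neutral amino acid exchanger, had values of 0.8 in control and 0.4 after IL-4 (centred log2 ratio -0.62). Slc7a5, the leucine exchanger, had 1 transcript after IL-4 (0.2, at the promoter) and none in control. Slc7a11, the cystine-glutamate exchanger, had 1 in control (0.5, in the first exon) and none after IL-4. Slc3a2 itself had 1.7 and 1.6 (0.29), both from long segments at the RefSeq start, but its ratio was -1.44 without repeats and -3.09 from the transcript nearest to the start, so its direction depends on the segment taken. Of these 4 light chains, 3 were called in only 1 library. An absent value means that no transcript was called and not that none was made.

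The listed glutamine carriers had a value in both libraries. Slc1a5 had 1.0 in control and 1.5 after IL-4 (0.96, rounding range 0.84 to 1.08) from its start, where the control segment was the longer (232 bp against 86 bp) and score times length gave -1.0. Slc38a2 had 0.6 and 0.7 (0.60), also at its promoter. By name Slc38a1 had 0.4 and 1.0 (1.70), but the value after IL-4 is a 36-bp segment past the gene's end, and inside the gene the values were 0.4 and 0.2 (-0.65). Slc43a2 (ENSMUSG00000038178.16, chr11:75531694-75577575, plus strand), whose window is printed above, was lower by name, with 1.9 and 0.6 (-1.28, rounding range -1.45 to -1.13). On its own strand it had 4.2 and 1.0 (-1.72), from 39 transcripts in control and 29 after IL-4. With repeats left out the ratio by name was -0.41. The lysosomal Slc38a9 had 0.6 and 0.2 (-1.21). Slc6a6, the taurine transporter, had 70 own-strand transcripts in control and 52 after IL-4, with values of 3.1 and 1.5 (-0.67).

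Carriers of sugars, sugar phosphates and carboxylates had 26 names, 24 with both values, of which 1 was at least 2-fold higher and 3 lower (median 0.14). The glucose transporter Slc2a1 (ENSMUSG00000028645.11, chr4:119108711-119137983, plus strand) had 2 own-strand transcripts in control (0.2 and 0.1) and 6 after IL-4 (0.5, 0.3, 0.2, 0.2, 0.1 and 0.2). By name its values were 0.3 and 0.5 (1.12, rounding range 0.74 to 1.52), the control value lying upstream on the other strand. From the transcripts nearest to the start, taken on either strand, its ratio was -1.58, and the control value there was that same other-strand segment. On its own strand the ratio was 1.68. Slc2a3, another glucose transporter, had 1 transcript in control (0.5, in a repeat) and none after IL-4. Slc2a6 had 0.7 and 0.4 by name (-0.43), both in an intron of the neighbouring Cacfd1, while its own strand went from 0 transcripts to 5 (highest 0.3). Slc37a2, a glucose-6-phosphate exchanger of the endoplasmic reticulum, had 0.8 and 0.9 by name (0.55) and 20 own-strand transcripts in control against 27 after IL-4, with highest scores of 1.3 and 1.9.

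Family 16, which holds the monocarboxylate carriers, comprised 8 names, all with both values and with 2 at least 2-fold lower and none higher (median -0.49). Over all genes 8.62% were lower and 8.06% higher. Of the 2, Slc16a10 is the aromatic amino acid transporter named above, and both are counted in the sugar and carboxylate group. Slc16a10 (ENSMUSG00000019838.11, chr10:40033532-40142258, minus strand) had 20 own-strand transcripts in control and 1 after IL-4. The control scores ran from 0.1 to 3.2, with 3.2 in a (CA)n repeat 49.7 kb into the gene and 3.0 in a (CAAA)n repeat at 27.5 kb. The transcript left after IL-4, with a score of 0.6, covers the 5' UTR, where control had 0.8. The centred ratio was therefore -2.04 from the highest scores (rounding range -2.18 to -1.90) but -0.09 when repeats were left out, because the start segment then gives the control value. Slc16a7, a lactate and pyruvate carrier, had 1.5 in control, from an 85-bp intronic segment, and 0.2 after IL-4 (-2.53). Both lactate carriers listed for macrophages stayed under 2-fold, with 0.7 and 0.6 for Slc16a1 (0.16) and 0.3 and 0.4 for Slc16a3 (0.79), the latter by name from the neighbouring Csnk1d and 0.3 and 0.2 on its own strand (-0.23). Slc45a4 also lost most called transcripts, with 16 on its own strand in control and 2 after IL-4. Its values were 1.8 and 0.4 (-1.79), both from repeats. Unlike that of Slc16a10, its ratio stayed past 2-fold without repeats (-1.68), while its transcripts nearest to the start gave 0. Slc45a1 (4.2 and 2.3, -0.49) took its values from introns of Rere, had no own-strand transcript, and gave 1.0 from the transcript nearest to the start.

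**Figure D2:**
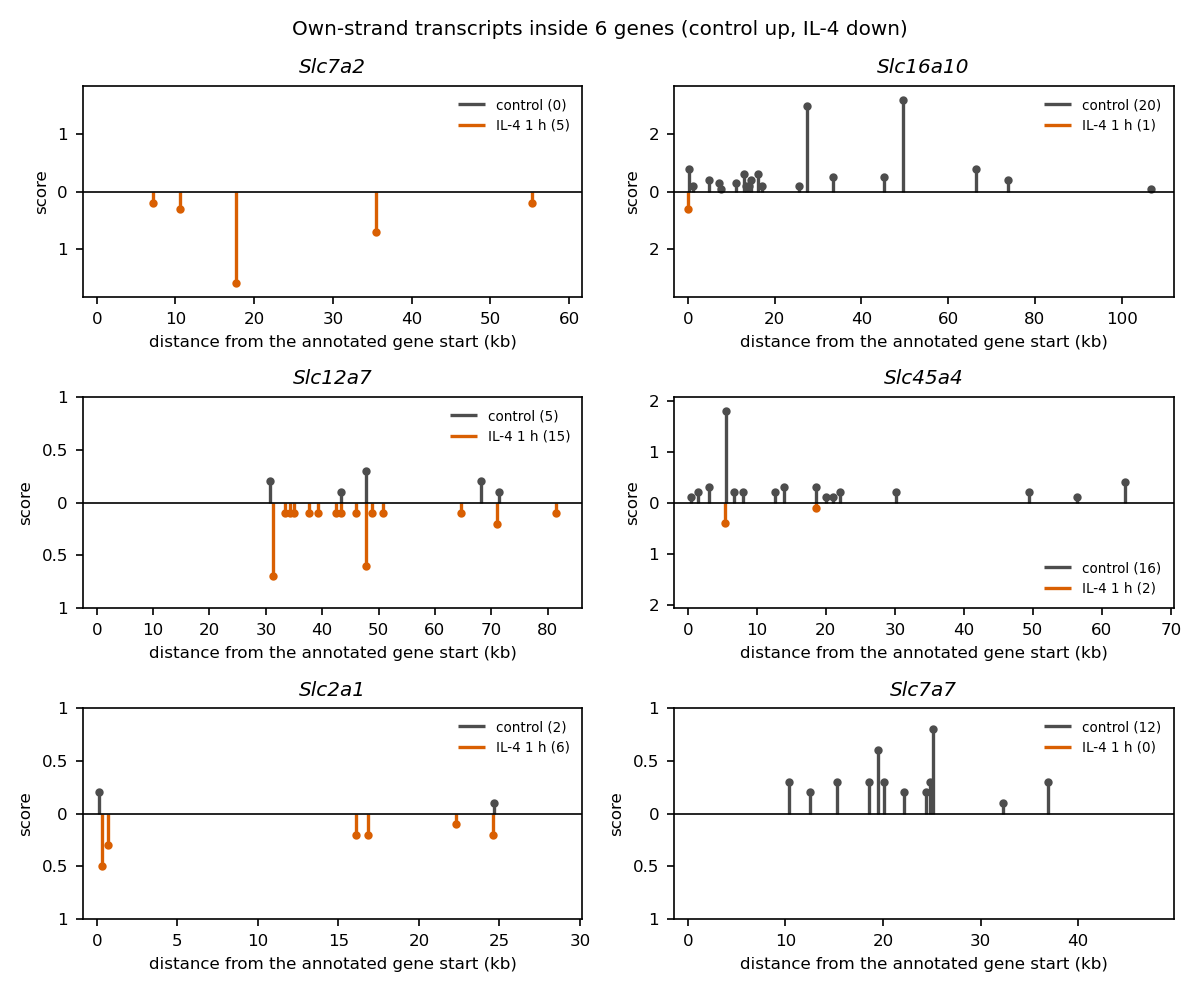
Own-strand transcripts inside 6 genes, placed by the distance of their midpoint from the annotated gene start (kb), with the score as stem height, control upward in grey and IL-4 downward in orange, and the number of transcripts in brackets. Slc7a2 has stems only after IL-4 and Slc7a7 only in control, while Slc16a10 keeps 1 of its 20 and that one is at the start.

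Metal and heme carriers had 26 names, 22 with both values, with 2 at least 2-fold higher and 2 lower (median -0.07). By highest score, the 5 iron and heme carriers chosen here had printed values at or under those of control. The median gene also had a printed ratio under control (-0.38), and after centring Slc11a2 lay above the median gene. Slc48a1, the lysosomal heme transporter, had 1.2 and 0.3 (-1.62, rounding range -1.94 to -1.34), both in repeats of the first intron, whereas its transcript nearest to the start had 0.1 and 0.2. Without repeats the ratio of Slc48a1 was -0.68. Slc40a1, the iron exporter ferroportin, had 0.5 and 0.2 (-0.94) at its start. Slc11a1, the phagosomal metal transporter of macrophages, had 1.8 and 1.0 (-0.47) with 8 own-strand transcripts in each library, but the control segment alone is annotated as a repeat and without repeats the ratio was 1.32. Slc11a2, the divalent metal importer, had 0.4 in both (0.38). Slc25a37, the mitochondrial iron importer mitoferrin, had 0.5 and 0.1 in its 3' UTR (-1.94, rounding range -3.08 to -1.21). Of these 5 carriers, Slc48a1 and Slc25a37 were past 2-fold by highest score, both from segments away from the gene start. Slc25a37 is counted with the mitochondrial carriers of family 25, and its transcripts nearest to the start gave -1.58. The 2 lower genes of the metal and heme group were Slc48a1 and Slc41a3.

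Zinc carriers gave the highest ratio by name. Slc39a12, a zinc importer, had 0.5 in control and 2.3 after IL-4 (2.58, rounding range 2.41 to 2.76), with 3 named transcripts in control and 14 after IL-4. It had no own-strand transcript in either library: both highest scores lie outside annotated genes, and the named transcripts lie in or past the 3' end of Mrc1, the mannose receptor gene next to it. The transcripts nearest to its start gave -2.32. Slc30a4, a zinc exporter, was called in the IL-4 library alone, with 2 own-strand transcripts, of which the higher (0.7) is in the 3' UTR. Slc30a5 had 3.8 and 1.5 (-0.96) in a repeat of an intron. Its promoter window was covered after IL-4 only, as given above, while its transcripts nearest to the start gave a ratio of 0. Slc39a1, another zinc importer, had 0.4 and 0.7 (1.19), and Slc41a3, of a magnesium carrier family, had 0.3 and 0.1 (-1.21). Slc39a11, named in control only (0.4, in the first exon), had 2 own-strand transcripts before and 3 (up to 0.1) after IL-4.

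Carriers of inorganic ions and phosphate had 22 names, 19 with both values, 4 at least 2-fold higher and none lower (median 0.06). On the own strand 1 of 17 was higher and 1 lower. Over all genes by name 8.06% were higher and 8.62% lower. Slc12a7 (ENSMUSG00000017756.9, chr13:73733094-73816754, plus strand) was higher on both views, with 0.3 and 0.7 (1.6, rounding range 1.27 to 1.96). It had 5 own-strand transcripts in control and 15 after IL-4. The transcript from the RefSeq start was 232 bp with a score of 0.2 in control and 1137 bp with 0.7 after IL-4, beginning at the same base, 73763729. Slc12a9 had 0.2 and 0.5 at its promoter (1.70), yet its highest own-strand scores were 1.0 and 0.5 (-0.65) from transcripts named after other genes. Slc26a6, an anion exchanger, had 0.3 and 0.7 (1.6) from transcripts on the other strand at its start, and its own strand went from 0 transcripts to 2 (highest 0.3). The fourth, Slc26a1 (0.3 and 0.5, 1.12), had no own-strand transcript, so of the 4 only Slc12a7 had an own-strand ratio past 2-fold upward.

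Several ion exchangers had long runs of transcripts. Slc8a1, the sodium-calcium exchanger, had 43 own-strand transcripts in control and 33 after IL-4, with values of 3.2 and 1.4 (-0.81). Slc9a9, the endosomal sodium-proton exchanger, had 101 and 123, with values of 2.6 and 1.8 by name (-0.15) and 4.7 and 2.4 on its own strand. Slc24a6, the mitochondrial sodium-calcium exchanger, had 16 and 8, with 3.1 and 1.7 (-0.49).

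Mitochondrial carriers of family 25 were the largest family, with 34 names and 25 with both values. Of these, 4 were at least 2-fold higher and 3 lower (median -0.04), while 2 had a value in control only and 7 after IL-4 only. Slc25a3, the phosphate carrier, had 1.0 and 1.9 (1.30, rounding range 1.2 to 1.42), from an intronic segment that also overlaps the small RNA gene Gm24119 on the same strand. Its promoter window was covered after IL-4 only, with a score of 0.9, while its transcripts nearest to the start, called in both libraries, gave a ratio of 0.58. Slc25a51, the NAD carrier, had 0.3 and 1.0 by name (2.12), but the value after IL-4 is a 36-bp segment outside genes and its own strand had 0.3 in both. Slc25a25, an ATP-magnesium and phosphate carrier, had 2 own-strand transcripts in control and 11 after IL-4, with values of 0.2 and 0.4 (1.38). Slc25a32 had 0.3 and 0.5 (1.12). Slc25a45 had 0.7 and 0.2 (-1.43, rounding range -1.94 to -1.0) in an intron. The aspartate-glutamate carrier Slc25a13 was named in control only (0.4, in a repeat), with own-strand values of 0.4 and 0.1. Named after IL-4 only were Slc25a16 (0.3, in the first exon) and the glycine carrier Slc25a38 (0.2 by name, on the other strand, and 0.1 on its own).

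Nucleoside and nucleotide sugar carriers had 24 names, 19 with both values, 1 at least 2-fold higher and 2 lower (median -0.21). Slc35b1, a nucleotide carrier of the endoplasmic reticulum, had 0.1 and 0.3 (1.96, rounding range 1.12 to 3.19) from promoter segments of 217 and 222 bp, of which the control one lies outside the printed window. The lysosomal nucleoside carrier Slc29a3 had 1.9 and 0.7 (-1.06, rounding range -1.21 to -0.92), with 10 own-strand transcripts in control and 3 after IL-4. Both values lie in a repeat, and without repeats the ratio was 0.13. Slc35e2 had 1.1 and 0.4 by name (-1.08) and 0.2 in both libraries on its own strand. Slc35e4 was named after IL-4 only (0.2, in the first exon).

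Peptide and vesicular carriers had 6 names, 5 with both values, none at least 2-fold higher and 1 lower (median 0.29). Slc15a3 and Slc15a4 are both lysosomal peptide and histidine transporters. Slc15a3 had 1.7 and 1.6 from its first exon (0.29), with 7 own-strand transcripts in control and 14 after IL-4. Slc15a4 had 1.2 and 0.4 by name (-1.21, rounding range -1.46 to -0.98), the control value lying in a repeat outside the gene, and 0.8 and 0.4 inside it (-0.65), with 16 and 11 transcripts. Slc17a5, the lysosomal sialic acid carrier, had 9 and 20 own-strand transcripts with values of 1.3 and 0.7 (-0.51), so the number of called segments and the highest score went opposite ways. Slc18a1, the vesicular monoamine transporter, carried the highest scores under any of the 191 names, 6.4 and 8.4 (0.77), but both lie in introns of Atp6v1b2 and its own strand had no transcript.

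Carriers of vitamins, lipids, choline and organic ions had 26 names, 19 with both values, 1 at least 2-fold higher and 1 lower (median -0.04). The choline transporter Slc44a1 had 0.6 in control, from a 79-bp repeat segment, and 0.1 after IL-4, from a segment outside the gene (-2.21). On its own strand it had 1 transcript in control and none after IL-4. Slc14a1, a urea transporter, had 0.2 and 0.4 (1.38), with 1 own-strand transcript in control and 5 after IL-4. The vitamin C transporter Slc23a2 had 23 and 13 own-strand transcripts, with values of 0.8 and 0.6 (-0.04). Slc22a5, the carnitine transporter, had 1 and 6, with 0.3 in both by name (0.38).

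**Figure D3:**
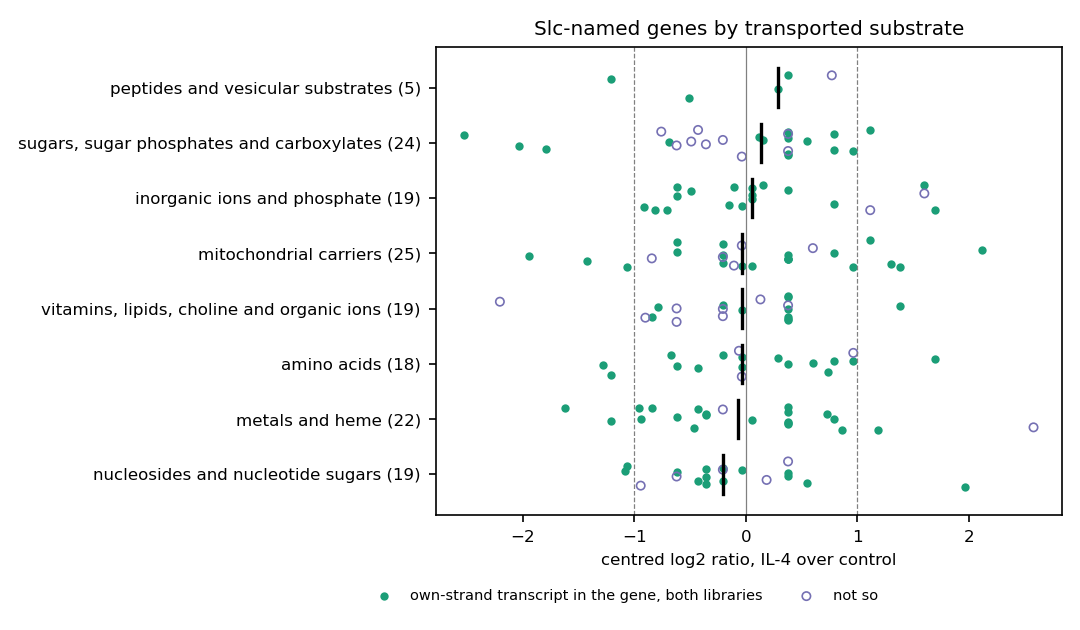
Centred log2 ratio of IL-4 over control for the 151 genes with both values, by the substrates of their families, with the number of genes in brackets. Each point is a gene, filled where it had an own-strand transcript in both libraries and open where it did not, black bars are medians (from -0.21 to 0.29) and dashed lines mark 2-fold.

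Across the 8 groups the medians lay between -0.21 and 0.29, and before centring each of them was below 0.

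Of the 24 carriers listed for macrophages, 21 had a value in control, 20 after IL-4 and 18 in both. At least 2-fold higher were Slc38a1 and Slc2a1, of which only Slc2a1 was so on its own strand. Lower were Slc48a1, Slc25a37, Slc15a4 and Slc29a3, of which all but Slc15a4 (-0.65) were so on their own strand. Over all genes 8.06% were higher and 8.62% lower. Nearest to the start on either strand Slc2a1 gave -1.58, with its control value from the other strand, and Slc48a1 gave 1.0. Without repeats Slc29a3 gave 0.13. The median centred ratio of the 18 was 0.22. A further 34 carriers have symbols of another form, such as the uncoupling proteins and the organic anion transporters (Slco). Of these, 10 had a value in control, 8 after IL-4 and 8 in both, none at least 2-fold higher and 1 lower (median -0.03). That 1 was Ucp1 (1.3 and 0.5, -1.0), which had no own-strand transcript.

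**Figure D4:**
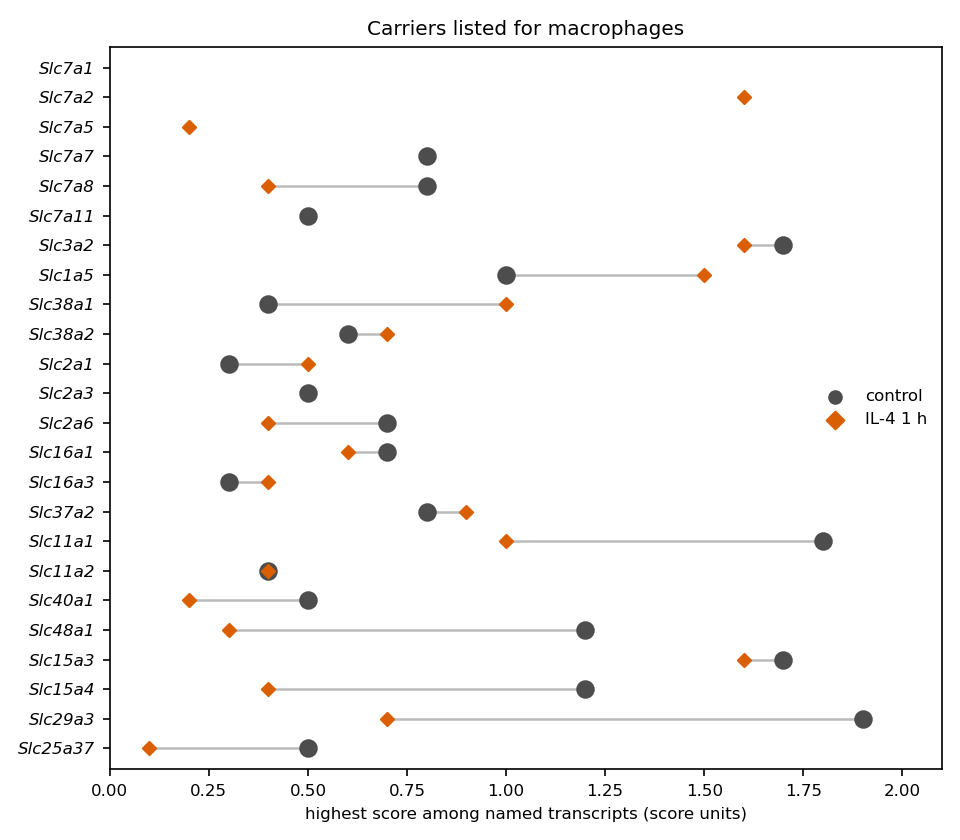
Highest score by name of the 24 carriers listed for macrophages, control as grey circles and IL-4 (1 h) as orange diamonds, in score units from 0. A gene with 1 symbol alone was named in that library only, as Slc7a2 was at 1.6 after IL-4 and Slc7a7 at 0.8 in control; Slc11a2 has both symbols at 0.4, and Slc7a1 has none.

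**Figure D5:**
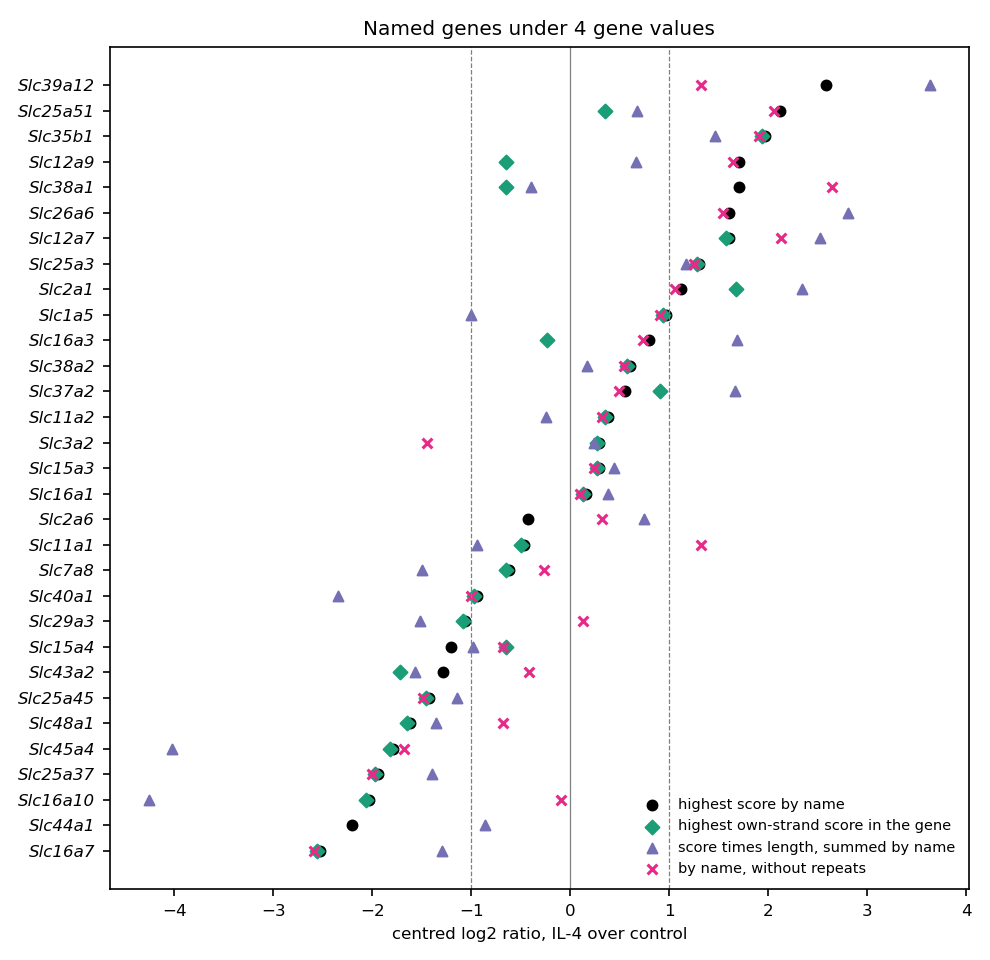
Centred log2 ratio, IL-4 over control, of the named genes under 4 definitions of a gene's value, with dashed lines at 2-fold. All 4 symbols lie above 1 for Slc12a7, Slc35b1, Slc2a1 and Slc25a3, and below -1 for Slc16a7, Slc25a37, Slc25a45 and Slc45a4. Those of Slc38a1 run from -0.65 to 2.64, and those of Slc16a10 reach -0.09 when repeats are left out.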

How the data were processed

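GRO-seq libraries of control and IL-4-treated BMDMs (1 each) were grouped by their treatment label. Per the labels, the authors used BWA 0.7.10, SAMtools 0.1.19 and HOMER 4.2 with the mm10 genome. They removed blacklisted regions, called transcripts in each library separately in HOMER's GRO-seq mode and annotated each with the gene of the nearest promoter. The only measurement deposited is a score per transcript, rounded to 1 decimal. Whether the authors scaled the score to library size or length is not stated, so an order of scores between genes is not an order of transcription levels.

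Gene values, centred ratios, rounding ranges and overlaps with GENCODE M21 genes were computed with Python 3.11.15, pandas 2.3.3 and NumPy 2.4.6 and tested on simulated data. Family roles, marker lists and the rule for the named genes (the 24 macrophage carriers, the largest ratios with a whole rounding range past 2-fold, and the highest values in both libraries or in 1 only) were chosen with earlier results of these data known. Genes named beyond that rule were chosen after their values were seen. Wilson intervals cover the sampling of transcripts only. The alternatives were 9 planned settings and 3 chosen after seeing the data. In the setting of the transcript nearest to the start, that transcript was taken on either strand.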

Additional observations from a re-analysis of the deposited data

How the results depend on the processing

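No paired analysis was possible because each condition has 1 library. The counts of 14 higher and 14 lower genes became 30 and 36 with score times length summed over a gene, 9 and 39 without centring, 36 and 22 with a pseudocount of 0.1 and missing genes set to 0, and 8 and 8 where the whole rounding range had to pass 2-fold. With the transcript nearest to the start 39 genes were lower, and with own-strand overlap 9 were higher and 7 had a value in control only. Shares over all genes are not given for the summed, uncentred, pseudocount and nearest-to-start settings, so their counts are not a result about carriers. With promoter windows extended downstream, 83 carriers were covered in control and 3 in control only. With genes below the median value left out, 3 had a value in control only and 3 after IL-4 only. The median over all carriers was -0.42 without centring. Medians of groups moved to -0.68 (amino acids), 0.90 (peptides) and -0.86 (vitamins and lipids) with summed values, and that of mitochondrial carriers to -0.42 both without centring and with the transcript nearest to the start. The direction turned for Slc38a1 (-0.39 summed, -0.65 on the own strand, and -0.62 with named transcripts inside the gene, an alternative chosen after seeing the data), for Slc12a9 (-0.65 on the own strand), for Slc29a3 (0.13 without repeats), and with the transcript nearest to the start for Slc2a1 (-1.58), Slc39a12 (-2.32) and Slc48a1 (1.0). Genes under 2-fold also changed sign in 16 alternative values: Slc3a2 (-3.09 nearest to the start, -1.44 without repeats, -0.09 without centring), Slc11a1 (1.32 without repeats), Slc45a1 (1.0 nearest to the start), Slc1a5 (-1.0 summed), Slc2a6 (0.74 summed, 0.32 without repeats), Slc16a3 (-0.58 nearest to the start, -0.23 on the own strand, -0.21 with named transcripts inside the gene), Slc16a1 (-0.22) and Slc15a3 (-0.09), each both nearest to the start and without centring, and Slc11a2 (-0.24 summed). The cause was not tested. Of the other alternatives to the gene values, 116 counts and medians stayed within set bounds and 217 single-gene ratios within their rounding ranges. The bound for a median was a 95% interval over its genes, or their whole range in the smallest group. Such bounds are wide. Within them the vitamin and lipid median went from -0.04 to -0.58 nearest to the start. The peptide median went from 0.29 to -0.14 on the own strand. A further 104 single-gene ratios moved without a change of sign. Depth, and with it the lowest score that could be called, is unknown for both libraries.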
